A study of Mus musculus with 60 samples.

Results

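The proximal pieces of the lower and the upper jaw were compared in C57Bl/6 mouse embryos on the embryonic day written E12.5, with 3 arrays of proximal mandible against 3 arrays of proximal maxilla, 6 of the 60 arrays in the series. The 6 were taken by their titles, and all of them carry the batch number 2. The series, from the FaceBase consortium, profiled total RNA (3 micrograms per array) of distal and proximal pieces of both jaws on expression arrays at 5 ages, in order to describe how the mandible and the maxilla form. The embryos carry no stated mutation, transgene or treatment, and the labels give the tissue of all 6 arrays as proximal bone. Whether the 3 arrays of each jaw came from separate embryos or pools is not stated there. Spread among arrays, which may be technical, is thus all that the p-values measure. Further groups used beside these 6 arrays were distal mandible and distal maxilla at E12.5 (3 arrays each, batch 2) and proximal mandible and proximal maxilla at E11.5 (3 arrays each, batch 3), of the same strain.

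Both jaws arise from the first pharyngeal arch, whose mesenchyme comes from cranial neural crest. Endothelin signalling in the lower part of the arch turns on Dlx5 and Dlx6, and these in turn act on Hand2, Gsc and other genes that give the lower jaw its identity. The maxilla forms in the absence of that signal, and first-arch crest of either jaw is known for lacking Hox expression, which marks the second and more posterior arches. At mid-gestation the jaw mesenchyme condenses into cartilage, bone and tendon, cranial muscle precursors differentiate, and axons of the trigeminal ganglion grow into both jaws.

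Values are log2 signals for 18193 genes, so that a difference of 1 is a doubling, and every difference is given as mandible minus maxilla. A gene is said to have been called, or to be higher or lower, where its adjusted p in limma was under 0.05. Arrays of the same jaw correlated at r = 0.9959 to 0.9985 over genes and arrays of different jaws at 0.9733 to 0.9757 (across genes, which are not independent replicates). The medians of the 6 arrays lay between 6.127 and 6.185. Replicate 2 of the mandible and replicate 3 of the maxilla stood apart from the other 4 arrays. Their upper quartiles were 8.633 and 8.646, above the 8.526 to 8.569 of the others, and their lower quartiles 4.513 and 4.517, below 4.602 to 4.619. Without these 2 arrays 6959 genes were called in place of 7938, and all 28 of the genes with the largest differences described below stayed called (largest adjusted p in limma 1.23e-06). The arrays carry no detection calls. A group whose mean was 4.78 or less is called dim here (4.78 being the greatest of the 60 lower quartiles), and a fold against a dim group is a lower bound.

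Promoter sequences of 4 genes are shown because each gene stands for a group that differed between the jaws. Hand2 and Gsc are transcription factors of the lower jaw that were higher in the mandible, and Nhlh2, a neural transcription factor, and Prph, the neuronal filament protein peripherin, were higher in the maxilla. The windows are the 250 bases before the RefSeq start on mouse build GRCm38.p6, written 5′ to 3′ on the gene's own strand. They lie at chr8:57320733-57320982 (Hand2, plus strand), chr12:104473237-104473486 (Gsc, minus strand), chr3:102009895-102010144 (Nhlh2, plus strand) and chr15:99054924-99055173 (Prph, plus strand). Capitals mark exact matches, on either strand, to a form of the E-box (CATCTG, or CAGATG on the other strand), to a homeodomain core (TAATTA) or to a TATA box (TATAAA, or TTTATA on the other strand). Other forms of the E-box were not searched for.
Hand2: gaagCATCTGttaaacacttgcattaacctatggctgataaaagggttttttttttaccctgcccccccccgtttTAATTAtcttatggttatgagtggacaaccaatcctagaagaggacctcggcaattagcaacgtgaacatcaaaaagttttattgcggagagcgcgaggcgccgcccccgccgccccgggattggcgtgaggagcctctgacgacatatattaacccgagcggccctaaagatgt
Gsc: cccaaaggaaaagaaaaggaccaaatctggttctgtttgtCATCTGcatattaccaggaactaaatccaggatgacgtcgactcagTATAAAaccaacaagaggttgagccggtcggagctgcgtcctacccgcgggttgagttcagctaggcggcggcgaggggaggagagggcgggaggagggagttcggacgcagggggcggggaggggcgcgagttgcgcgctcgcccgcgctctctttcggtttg
Nhlh2: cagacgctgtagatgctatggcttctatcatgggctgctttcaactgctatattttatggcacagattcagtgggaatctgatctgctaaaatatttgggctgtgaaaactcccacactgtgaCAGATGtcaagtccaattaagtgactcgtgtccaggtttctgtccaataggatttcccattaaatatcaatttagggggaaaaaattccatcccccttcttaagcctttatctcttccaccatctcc
Prph: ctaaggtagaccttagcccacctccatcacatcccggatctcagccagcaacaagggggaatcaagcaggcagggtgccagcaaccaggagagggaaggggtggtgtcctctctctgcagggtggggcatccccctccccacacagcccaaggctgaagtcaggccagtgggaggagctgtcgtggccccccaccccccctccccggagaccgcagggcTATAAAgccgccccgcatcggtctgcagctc

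In these windows the E-box starts at position -246 in Hand2, -210 in Gsc and -127 in Nhlh2, counted back from the start. The homeodomain core of Hand2 starts at -175, and the TATA box starts at -164 in Gsc and at -31 in Prph. Over 32851 mouse promoter windows of this length this form of the E-box was present in 14.4%, the homeodomain core in 4.8% and the TATA box in 12.4%. Of the 14 genes with the largest differences in each direction, 11 of those higher and 12 of those lower in the mandible had a window. The E-box of this form was found in 1 gene on each side (Gsc and Nhlh2), the TATA box in 5 and 2 genes, and the homeodomain core in 0 and 0. These matches describe the letters and were not set against binding data.

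The comparison asks which genes distinguish the proximal part of the lower jaw from that of the upper jaw at E12.5. The genes far higher in the mandible were of several kinds: skeletal matrix genes (C1qtnf3, Ibsp, Matn1), patterning genes (Hoxa2, Hoxd8, Gsc) and the otoconial protein gene Oc90. The genes far higher in the maxilla were led by Prrxl1, Ppp1r17 and Pou4f1, and of the 14 described 5 are on a gene list used here and 9 are not. Of the 18193 genes, 7938 (43.6%) were called, 4906 (27.0%) higher and 3032 (16.7%) lower in the mandible, with a median difference over all genes of 0.045. The 3 arrays of one jaw lay entirely above the 3 of the other for 8915 genes (49.0%). At a limit of a called 2-fold difference 1010 genes (5.55%) remained and the split turned, as 379 genes (2.08%) were higher and 631 (3.47%) lower in the mandible. In pieces of whole tissue, fewer cells of a type and less RNA per cell cannot be told apart.

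C1qtnf3 encodes a secreted protein known from growing cartilage. Its log2 signals were 9.87, 10.20 and 9.74 in the 3 mandible arrays and 4.58, 4.36 and 4.79 in the 3 maxilla arrays. The maxilla level was dim, so that the gene was at least 35.5-fold higher in the mandible (measured difference 5.36, SE 0.23, limma adjusted p = 4.39e-25). Ibsp encodes bone sialoprotein, a matrix protein of mineralizing bone. Its signals were 7.61, 7.93 and 7.39 in the mandible against 2.96, 3.29 and 3.15 in the maxilla. All 3 maxilla arrays were dim, and the gene was at least 7.27-fold higher in the mandible (measured difference 4.51, SE 0.29). Its other probe set differed by 1.57, and the mean of both by 3.04. Matn1 encodes the cartilage matrix protein matrilin. It read 8.93, 8.89 and 8.60 in the mandible against 4.56, 5.03 and 5.06 in the maxilla, that is 3.92 apart (SE 0.32). The genes described here and in the next paragraphs were chosen by a rule that required the arrays of the jaws not to overlap, so that their separation is no result.

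Hoxa2 specifies the second arch. Its signals were 9.99, 10.07 and 9.99 in the mandible against 5.13, 5.22 and 5.08 in the maxilla, a 29.3-fold difference (4.88, SE 0.28, limma adjusted p = 3.14e-20). Hoxd8, a more posterior Hox gene, read 8.89, 9.29 and 9.18 in the mandible against 6.03, 6.15 and 6.26, 7.85-fold higher. In both genes the 3 arrays of each jaw lay close together. Oc90 encodes otoconin, found in the mineral grains of the balance organs. Its signals were 11.14, 10.99 and 11.16 in the mandible against 6.01, 6.00 and 5.98 in the maxilla, a 34.2-fold difference (5.10, SE 0.24). The maxilla value was close to that of the distal pieces, which read 5.79 (mandible) and 5.87 (maxilla) on average.

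Meg3 and Mirg are noncoding RNAs of an imprinted cluster on chromosome 12. Meg3 read 12.70, 12.69 and 12.77 in the mandible against 9.73, 9.59 and 9.62 in the maxilla, 8.42-fold higher, and Mirg was 6.76-fold higher (2.76, SE 0.18). The size depended on the probe set: averaged over all probe sets of the gene, the difference was 1.51 for each of the 2 genes. Panx3, a channel protein of osteoblasts and cartilage cells, and Abi3bp, an extracellular matrix protein, were at least 6.37-fold and 5.87-fold higher, both being dim in the maxilla. Panx3 differed by 1.01 when its probe sets were averaged. Aspn, a proteoglycan of connective tissue, read 9.66, 10.25 and 9.76 against 6.91, 7.0 and 7.52, 6.71-fold higher. Also among the 14 genes most above the maxilla were Cox7c, a subunit of cytochrome oxidase (2.97, SE 0.28), and Rpl12, a ribosomal protein (2.81, SE 0.16). Mean signals were 7.85 against 4.88 for Cox7c and 8.97 against 6.16 for Rpl12. The median level of the Rpl genes measured was 14, so that the probe set of Rpl12 read far below it in both jaws. Whether these probe sets follow the main transcript of their gene was not tested. Of 24 ribosomal Rpl genes measured, 8 were higher and 0 lower, beside 27.0% and 16.7% of all genes, with a median of 0.04, and 2 passed 2-fold.

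**Figure D1:**
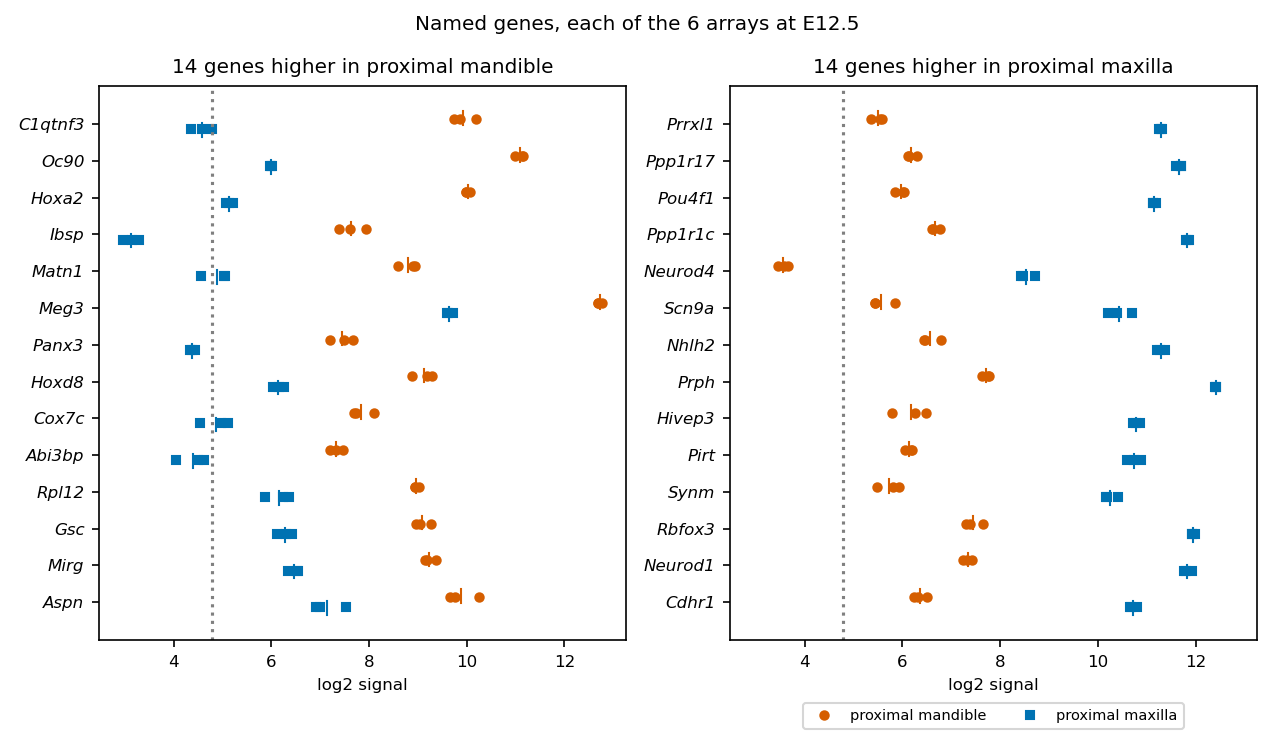
Log2 signal (x axis) of the 14 genes with the largest differences in each direction, in each of the 6 arrays; dots are mandible arrays, squares maxilla arrays, short bars group means, and the dotted line is the dim limit of 4.78. The rule that chose the 28 genes required arrays that do not overlap, and 4 of the genes higher in the mandible are dim in the maxilla.

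Among the genes lower in the mandible, Prrxl1, a homeobox gene of pain-sensing circuits, showed the largest difference. Its signals were 5.54, 5.37 and 5.59 in the mandible against 11.32, 11.30 and 11.25 in the maxilla, so that it was 55.5-fold higher in the maxilla (-5.79, SE 0.23, limma adjusted p = 3.67e-26). Pou4f1, a regulator of sensory neurons, read 6.02, 6.04 and 5.84 against 11.13, 11.13 and 11.20, 36.5-fold higher in the maxilla. Arrays of the same jaw lay close together for both genes.

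Ppp1r17 and Ppp1r1c, inhibitors of protein phosphatases, differed by -5.48 (SE 0.38) and -5.17 (SE 0.29). Of the neural bHLH factors, Neurod4, dim in the mandible, had a measured difference of -4.97, Nhlh2 differed by -4.72 (SE 0.38) and Neurod1 by -4.50 (SE 0.37). Prph read 7.78, 7.75 and 7.63 in the mandible against 12.43, 12.42 and 12.39 in the maxilla, 25.9-fold higher in the maxilla. The sodium channel gene Scn9a (-4.86), the ion channel regulator Pirt (-4.60), the filament gene Synm (-4.52), Rbfox3, the gene of the neuronal marker NeuN (-4.50), Hivep3, a zinc finger factor (-4.61), and Cdhr1, a cadherin of photoreceptors (-4.36), complete the 14. Averaged over their probe sets, Prph differed by -1.41, Hivep3 by -1.12, Scn9a by -2.45 and Rbfox3 by -2.75. The largest adjusted p among the 28 genes of both directions was 9.00e-09 (limma).

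Lower-jaw patterning genes were mostly higher in the mandible, with 10 of 14 measured members called higher, 0 lower and a median difference of 0.82, beside 27.0% of all genes called higher and a median of 0.045. Gsc, the homeobox gene goosecoid, read 9.05, 9.26 and 8.97 in the mandible against 6.31, 6.12 and 6.42 in the maxilla, 7.0-fold higher (SE of the log2 difference 0.21). Hand2, the bHLH factor downstream of endothelin, read 10.19, 10.19 and 10.03 against 7.75, 7.63 and 7.74, 5.40-fold higher (2.43, SE 0.12). All mandible arrays of Hand2 lay above its maxilla arrays. Its other probe sets, of lower mean level, differed by 0.10 and 0.03 without a call. Dlx4 (2.13), Pitx1 (1.73), a regulator of lower-jaw and hindlimb form, Dlx3 (1.18) and Tbx4 (0.97) were higher as well. Another probe set of Dlx4 differed by 1.21, and another of Dlx3 by 0.10 without a call. Dlx5 and Dlx6, the pair that acts upstream in this pathway, differed by 0.86 (SE 0.17) and 0.67 (SE 0.19). Gata3 was higher by 0.77. Of the ligands, Edn3 was higher by 0.63, and Edn1, the endothelin of the arch, differed by 0.23 (adjusted p in limma 0.0748). Mef2c (0.34), Hand1 (-0.13) and the jaw-joint gene Nkx3-2 (-0.20) were not called, and the endothelin receptor Ednra was not analysed here.

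Genes linked to the upper jaw and palate did not run the other way as a group. Of 16 members, 7 were higher in the mandible (27.0% of all genes were), 3 were lower, near the 16.7% of all genes, and the median was 0.25. Foxl2, a forkhead gene of periocular and maxillary mesenchyme, read 7.93 ± 0.18 in the mandible and 9.81 ± 0.01 in the maxilla (SD, n = 3). It was the member most above in the maxilla, with -1.88 (SE 0.09). Its other probe set, of lower mean level, differed by 0.21 without a call. Pou3f3, a POU factor of the maxillary arch, and Nr2f2, a nuclear receptor, were lower in the mandible by smaller amounts (-0.40 and -0.35). Higher in the mandible were Zic1 (1.58, SE 0.40), the odd-skipped genes Osr1 (0.98) and Osr2 (0.67), Irx3 (0.57), Irx5 (0.55), Meox2 (0.52) and the tooth and palate gene Pax9 (0.29). Nr2f1 (0.11), Zfhx4 (0.24), the cleft palate gene Tbx22 (0.26), Mn1 (-0.12), Six2 (-0.19) and Shox2 (-0.45) were not called. The count called higher was 4 when the arrays numbered 2 in every group were left out, and the count called lower was 6 when only the arrays of batch 2 were fitted.

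**Figure D2:**
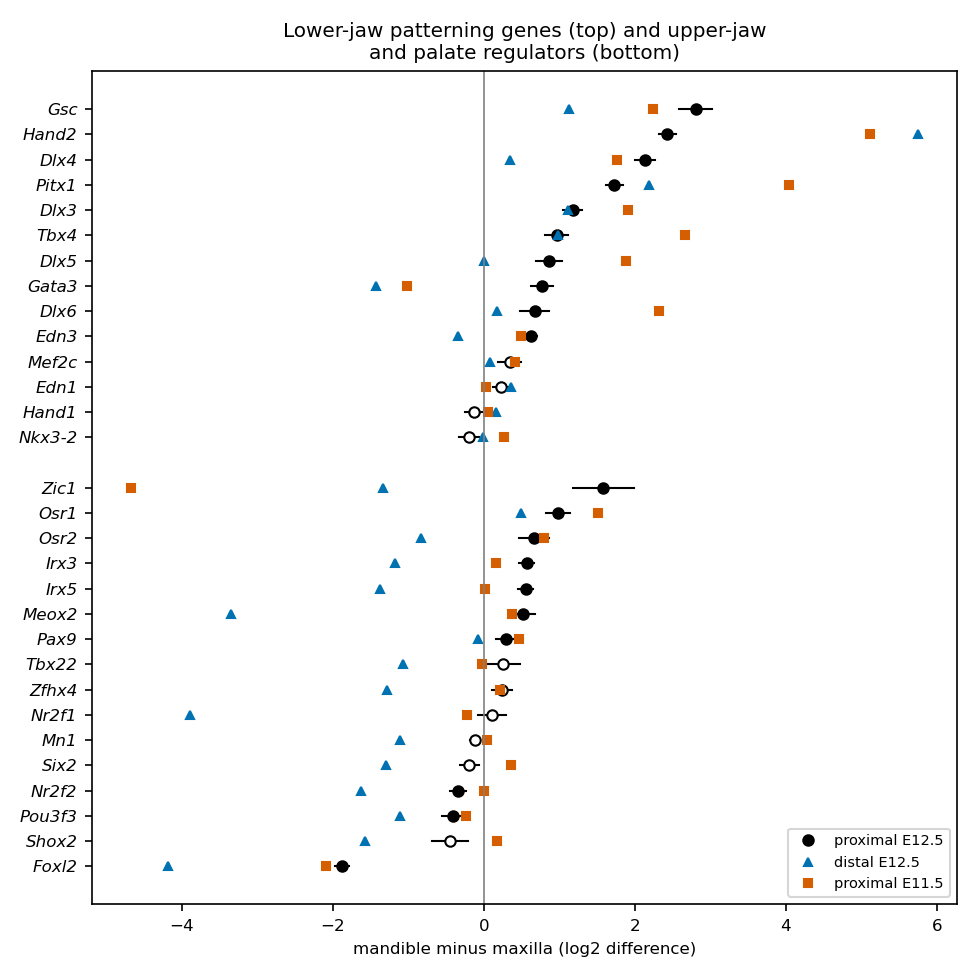
Mandible minus maxilla log2 difference (x axis) of the 14 lower-jaw and 16 upper-jaw and palate genes; circles are the proximal pieces at E12.5 with bars of 1 SE (filled where adjusted p is under 0.05), triangles the distal pieces at E12.5 and squares the proximal pieces at E11.5. Hand2 lies at 2.43 proximally and 5.75 distally, and most upper-jaw genes lie below 0 distally but near or above 0 proximally.

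Homeobox genes used across both jaws were divided. Of 13 members, 6 were higher and 2 lower, beside 27.0% and 16.7% of all genes, with a median of 0.29. Msx1, a target of Bmp signalling in the mesenchyme, was higher by 1.56 and Barx1, of the proximal arch, by 0.94. Twist1 (0.68), Lhx8 (0.64) and Prrx1 (0.32), general markers of crest mesenchyme, were also higher. Alx1, a gene of facial midline mesenchyme, was lower in the mandible by 2.59, with levels of 5.61 against 8.20. Msx2, the paralogue of Msx1, went the other way from it, with -1.22.

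Hox genes were higher in the mandible in 7 of the 10 anterior members measured, with 0 lower and a median of 0.51. Beside Hoxa2, Hoxb2 differed by 2.73, Hoxc4 by 2.32, Hoxd3 by 1.21, Hoxb4 by 0.53 and Hoxb3 by 0.49. The size depended on the probe set. Others, of lower mean level, gave 3.67 for Hoxb3, 1.82 for Hoxa5 (0.30 in the one used) and 1.32 for Hoxa3 (0.28). The remaining ones of Hoxa3 gave 0.45 and -0.18, and another of Hoxb4 gave 0.36. Over all 33 Hox genes with a probe set, a count made after values were seen, 11 were higher, 1 was lower and 11 were dim in both jaws, and the median was 0.083. These shares are close to or below the 27.0% and 16.7% over all genes.

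For the pathway counts that follow, 27.0% of all genes were called higher and 16.7% lower. Members of the Bmp pathway were called higher in 11 of 18 cases and lower in 1 (median 0.29). The ligand Bmp5 (1.16), the receptors Bmpr1b (0.93) and Bmpr1a (0.29) and the antagonists Chrdl1 (1.35) and Grem1 (1.15) were higher, and the type 2 receptor Bmpr2 was lower (-0.48). Other probe sets of Bmpr1b differed by 0.585 with a call and by 0.24 without one. In the Fgf pathway 8 of 17 members were higher and 1 lower (median 0.18). Fgf7, a mesenchymal ligand that acts on epithelium, read 8.68, 8.80 and 8.43 in the mandible against 6.42, 6.31 and 6.48 in the maxilla, 4.71-fold higher. The receptors Fgfr4 (1.16), Fgfr3 (1.09) and Fgfr2 (0.64) and the inhibitors Il17rd (0.76) and Spry1 (0.71) were higher too. Other probe sets of Fgfr4 differed by 0.50 and 0.32 with a call and by 0.19 and 0.12 without one. Those of Fgfr2 gave 0.69 with a call and 0.01 without one. The other probe sets of Fgfr3 (0.27) and Il17rd (0.04) were not called.

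In the hedgehog pathway 9 of 14 members were higher and 1 lower (median 0.35). The target genes Hhip (1.18) and Gli1 (0.67) and the co-receptors Boc (0.92), Cdon (0.67) and Gas1 (0.42) were higher, while the ligand Shh differed by -0.41 (adjusted p in limma 0.147). Smo, the signal transducer, was higher by 0.21, but another probe set of it was called in the opposite direction. Other probe sets of Hhip differed by 0.53 with a call and by 0.29 and 0.22 without one. Of 16 Wnt targets and modulators 8 were higher and 1 lower (median 0.39). The target Axin2 (0.53), the feedback gene Nkd2 (0.74), the secreted modulators Sfrp2 (0.85) and Rspo2 (0.60) and the ligase gene Rnf43 (0.79, dim in the maxilla) were higher, and Rspo3 was lower (-0.78). Another probe set of Axin2 differed by -0.12 without a call. With array quality weights 13 Wnt members were called higher.

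Retinoic acid genes were higher in 8 of 14 cases and lower in 2 (median 0.40). The synthesizing enzyme Aldh1a3 differed by 2.32, from 8.48 to 6.16, and the oxidoreductase Rdh10 by 0.95. Other probe sets of Aldh1a3 differed by 0.41 and 0.91. The degrading enzyme Cyp26a1 (1.02), the carrier Rbp4 (0.82), the reductase Dhrs3 (0.46) and the binding protein Crabp2 (0.27) were higher also. Notch genes leaned the other way, with 8 of 15 lower and 4 higher in the mandible (median -0.26). The targets Heyl (-1.62), Hey2 (-1.30), Nrarp (-1.04) and Hey1 (-0.74) were lower, whereas the target Hes1 (0.80) and the receptor Notch2 (0.51) were higher. The count of higher Notch members was 2 when the probe sets of a gene were averaged.

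Cell cycle genes were higher in 17 of 19 cases, by small amounts (median 0.29). Cdk1, the mitotic kinase, differed by 0.75, Ccne1 by 0.75, Aurkb by 0.67, Aurka by 0.63, Birc5 by 0.46 and Rrm2 by 0.38. Tooth genes were higher in 7 of 19 cases and lower in 1 (median 0.18), not far from the 27.0% of all genes called higher, among them the Wnt and Bmp inhibitor Sostdc1 (0.95) and Bmp4 (0.70), and 11 of them were called higher with array quality weights. In the list for joint and tendon 6 of 12 were higher and 1 lower. Gdf5, which marks joint-forming cells, was higher by 0.90, Egr1 by 0.86, Thbs4 by 0.65, Erg by 0.42 and Fmod by 0.48, and Egr2 was lower (-1.0). Only 3 of that list were called higher without the arrays numbered 2.

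Cartilage genes were higher in the mandible in 15 of 20 cases, with 0 lower and a median of 1.0. Of all genes 27.0% were called higher and 16.7% lower. Hapln1, which links the cartilage proteoglycans, differed by 2.70 (8.59 against 5.89), Acan, the main proteoglycan, by 2.29, Col9a3 by 2.04, Col9a1 by 0.98 and Col11a1 by 0.93. Of the bone genes 7 of 10 were higher and 1 lower (median 0.87). Beside Ibsp and Panx3, the phosphate regulator Phex was at least 5.39-fold higher, Ifitm5, an osteoblast membrane protein, differed by 1.64 and Sp7, the osteoblast transcription factor, by 0.96. Smpd3, an enzyme needed for mineralization, was the exception with -1.12. Ibsp, Panx3 and Phex were dim in the maxilla and the osteocyte gene Dmp1 in both jaws, although the tissue is labelled as bone. The summed signal of the cartilage list was 14.13 to 14.16 (log2) in the mandible arrays and 13.05 to 13.13 in the maxilla arrays.

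Skeletal muscle genes were higher in the mandible in 20 of 24 cases, with 0 lower and a median of 1.05. Myog, the myogenic regulator, differed by 1.04 (11.37 against 10.32), the troponins Tnni1 by 1.51, Tnnt3 by 1.18 and Tnnt1 by 1.12, Smpx, a muscle cytoskeleton protein, by 1.78 and Des, the filament desmin, by 0.73. Without the 2 arrays that stood apart 17 of the 24 were called higher. Among the cardiac genes 4 of 12 were higher, a share near the 27.0% of all genes, of which Tnnt2 (1.74) and Myh7 (1.70) are also made in embryonic skeletal muscle, and Tnni3 (0.81) and Tbx5 (0.42) followed. The chamber genes Myl2 and Nppa were dim in both jaws.

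Epithelial genes were higher in 14 of 16 cases, with 0 lower (median 0.88), beside 27.0% and 16.7% of all genes. Epcam, an epithelial adhesion molecule, read 10.60 ± 0.04 against 8.73 ± 0.03 (SD, n = 3), a difference of 1.87. Cldn6 (1.96), Krt8 (1.58), Esrp1 (1.16), Krt18 (1.05) and Perp (1.04), components of epithelial junctions, keratin filaments and splicing, were higher as well.

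Neuronal genes formed the group most above in the maxilla. All 19 measured members of the sensory neuron list were lower in the mandible, beside 16.7% of all genes, with a median of -3.68. Arrays of the jaws did not overlap in any of the 19, beside 49.0% of all genes without overlap. Gap43, of growing axons, differed by -1.82 (SE 0.08), Isl1, of sensory and motor neurons, by -3.49, and Scn9a, Prph, Pou4f1 and Prrxl1 by the amounts given above. Isl1 read 9.66, 9.39 and 9.47 in the mandible against 12.97, 13.00 and 13.02 in the maxilla. The summed signal of the list was 13.28 to 13.42 in the mandible arrays and 16.66 to 16.69 in the maxilla arrays. Its lowest member mean in the mandible was 5.50, so that none of its members was dim in either jaw.

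Synaptic genes were lower in 13 of 15 cases (median -1.54), beside 16.7% of all genes. The synaptotagmins Syt4 (-3.52) and Syt1 (-2.87), the purinergic receptor P2rx3 of sensory endings (-3.47), Snap91 (-2.67), Syp (-2.07) and the calcium channel Cacna1b (-1.62) were among them. Genes of Schwann cells and crest glia were lower in all 10 cases (median -0.81). Fabp7, a lipid carrier of early glia, differed by -3.44, the receptors Ngfr by -1.84 and Gfra3 by -1.69, Sox10, the master regulator of crest glia, by -1.30, Egfl8 by -0.85 and Mbp by -0.70. How much nervous tissue each piece held was not measured apart from these genes, and the part of neuronal genes in the other differences was not tested.

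**Figure D3:**
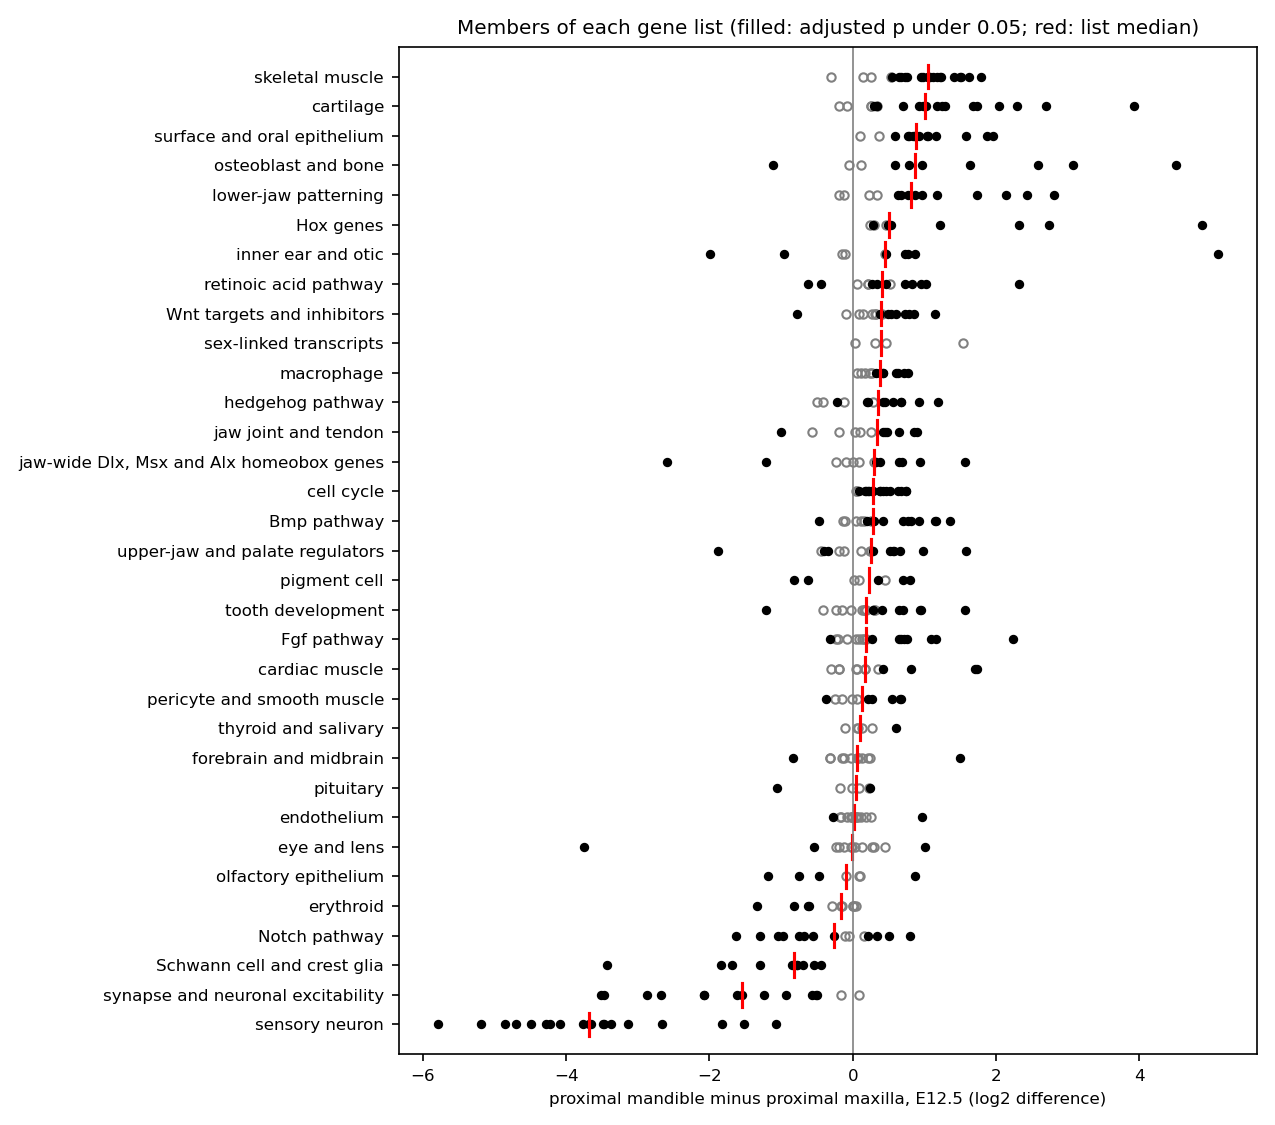
Log2 difference, proximal mandible minus proximal maxilla at E12.5 (x axis), of each measured member of the 33 gene lists (y axis), filled where adjusted p is under 0.05; red bars are list medians. The sensory neuron list lies wholly below 0 with a median of -3.68, and the skeletal muscle, cartilage and epithelium lists have medians of 1.05, 1.0 and 0.88.

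Other cell types differed less, and their counts stand beside 27.0% of all genes called higher and 16.7% called lower. Macrophage genes were higher in 8 of 13 cases with 0 lower (median 0.38), among them Lyz2 (0.77), Mrc1 (0.72), Cd68 (0.64) and Ptprc (0.61). Endothelial genes were called in 2 of 14 cases, Egfl7 higher by 0.97 and Plvap lower by 0.28, and in 5 higher and 3 lower with array quality weights. Of the pericyte and smooth muscle genes 5 of 10 were higher (Tagln 0.66, Acta2 0.67) and 1 was lower. Erythroid genes were lower in 4 of 11 cases, among them the embryonic globin Hbb-bh1 (-0.82) and Tfrc (-0.63). Pigment genes were divided, with Dct (0.80) and Mitf (0.71) higher and Kit lower (-0.81), 3 and 2 of 8 in all.

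Markers of neighbouring organs were also read. Beside their counts stand 43.6% of all genes called, 27.0% higher and 16.7% lower. In the otic list 5 of 10 were higher and 2 lower, the neural and otic gene Sox2 lower in the mandible (-1.99) and Otog higher by 0.73. The summed otic signal was 11.94 to 11.99 in the mandible and 10.99 to 11.21 in the maxilla. Without Oc90 it was 10.79 to 10.89 in the mandible and 10.95 to 11.17 in the maxilla, so that the higher mandible sum rested on that gene. Pax8 was dim in both jaws. In the eye and lens list 3 of 13 were called. The lens crystallin Cryba1 was at least 11-fold higher in the maxilla, and Cryab was higher in the mandible (1.01). Forebrain genes were called in 2 of 13 cases (Otx2 higher by 1.5 from a dim maxilla level, Lhx2 lower by 0.83), olfactory genes in 4 of 7, pituitary genes in 2 of 6 and thyroid and salivary genes in 1 of 6. Of 4 sex-linked transcripts 0 were called in limma and 0 had an unadjusted p under 0.05, the nearest being Xist with 11.86 against 10.33 (SE of the difference 0.77, limma adjusted p = 0.109). The SD of Xist was only 0.07 in the 3 mandible arrays and 0.05 in the 3 maxilla arrays. Its SE rests on the spread within all 20 groups, so the missing call does not show that the jaws were alike. With the arrays of batch 2 fitted alone 3 of the 4 sex-linked transcripts were called. What part these tissues have in the differences was not tested.

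The distal pieces of the same age gave another set of jaw differences. There 4216 genes (23.2%) were called, 12.3% higher and 10.9% lower in the mandible. The proximal difference itself departed from the distal one in 6069 genes (33.4%), in the mandible's favour proximally for 19.4% and against it for 14% (limma interaction, 4 groups of 3 arrays with no array shared). Of the 379 genes at least 2-fold higher in the proximal mandible, 148 were called in the same direction distally, 91 in the opposite one and 140 not at all, with a distal median of 0.21. Of the 631 lower genes 144 were called the same way, 84 the opposite way and 403 not, with a median of -0.09. Left out of all groups, the arrays numbered 2 moved the interaction count in the mandible's favour from 3527 to 2111.

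Muscle genes were the clearest case of opposite directions. In the distal pieces 22 of 24 were lower in the mandible (median -3.18), against 20 higher proximally, and the interaction was called upward for 22 and downward for 1 (median 4.2). Myl4, an embryonic myosin light chain, read 11.37, 11.41 and 11.41 in the proximal mandible and 9.94, 9.92 and 10.09 in the proximal maxilla. Its distal means were 6.32 and 10.32, which gave an interaction of 5.41 (SE 0.54, limma adjusted p = 1.10e-11). The low value was thus that of the distal mandible. Tnnt2 (5.30, SE 0.48) and Tnnc2 (5.29, SE 0.46), both troponins, had interactions of nearly that size.

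Upper-jaw and palate regulators were lower in the mandible distally in 14 of 16 cases (median -1.29), and the interaction was called upward for 14 and downward for 0 (median 1.42). Nr2f1, an orphan nuclear receptor, differed by -3.89 distally and 0.11 proximally, and Meox2 by -3.35 and 0.52. Foxl2 was lower in the mandible at both positions, by 4.18 distally. Hand2 differed by 5.75 distally, so that its proximal difference was smaller by 3.31 (SE 0.16). Gsc and Dlx4 ran the other way, with proximal differences larger by 1.68 and 1.78. For Dlx3 and Tbx4 the positions gave nearly equal values (interactions 0.06 and -0.03, not called).

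Nervous tissue genes set the positions apart as well. For the sensory neuron list the interaction was called downward in 18 of 19 cases (median -3.43), and 8 members were lower and 2 higher in the mandible distally. Pou4f1 had distal means of 4.83 in both jaws. Prrxl1 (-5.81, SE 0.33), Isl1 (-5.46, SE 0.22), Ppp1r17 (-5.40, SE 0.54), Pou4f1 (-5.19, SE 0.43) and Ppp1r1c (-5.12, SE 0.41) gave the interactions furthest below 0 among the genes that the naming rule admits, and Ppp1r17 was dim in the distal pieces. Isl1 was higher in the mandible distally, by 1.97, and lower proximally. Macrophage genes were called upward in the interaction in 13 of 13 cases (median 0.83), beside 19.4% of all genes. Cartilage genes, by contrast, were higher in the mandible at both positions. Distally 14 of 20 were higher and 1 lower (median 1.28), beside 12.3% and 10.9% of all genes. Their interaction was called upward for 3 and downward for 3, near the 19.4% and 14% of all genes.

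**Figure D4:**
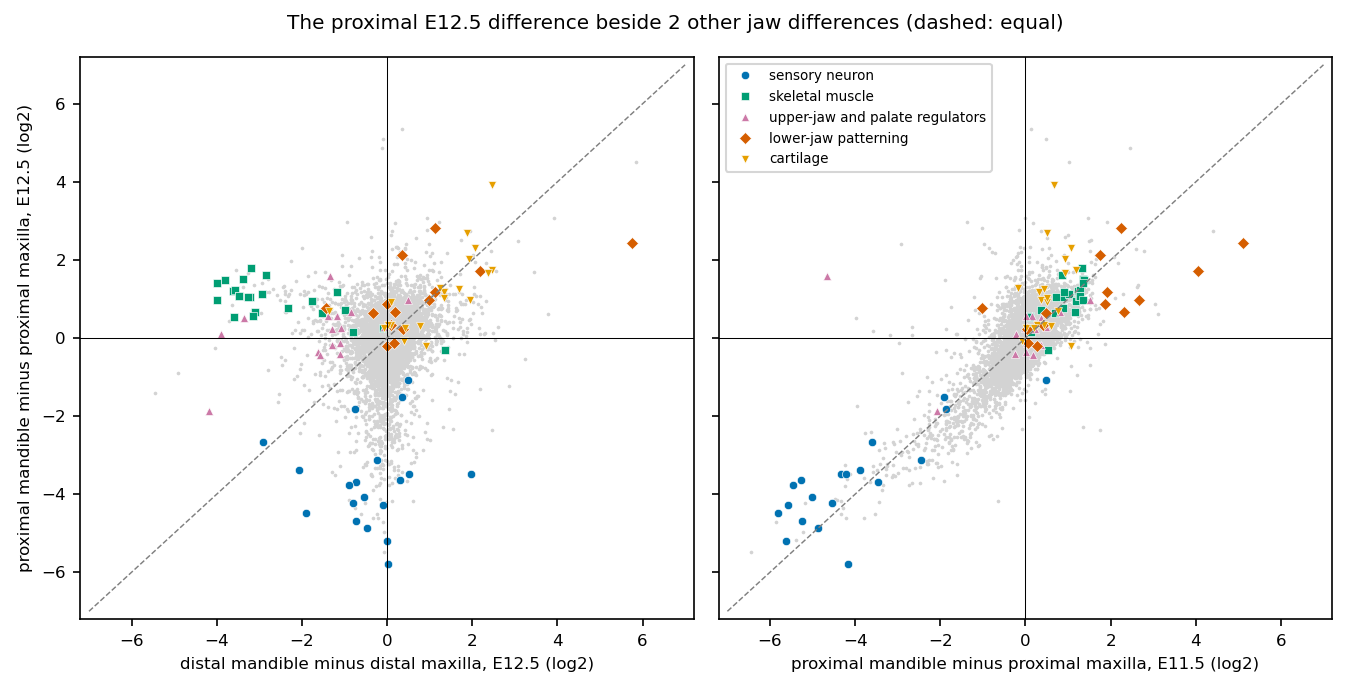
Log2 jaw difference of the proximal pieces at E12.5 (y axis) against that of the distal pieces at E12.5 (left) and of the proximal pieces at E11.5 (right); grey points are all genes, coloured symbols the members of 5 lists, and the dashed line marks equal differences. Skeletal muscle genes lie above 0 proximally and mostly below 0 distally (medians 1.05 and -3.18), and sensory neuron genes lie low at both ages in the proximal pieces (medians -3.68 and -4.33).

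The proximal jaws a day earlier, at E11.5, showed a difference in 5845 genes (32.1%), 21.4% higher and 10.7% lower. The change of the difference from E11.5 to E12.5 was called in 4258 genes (23.4%), upward in 11.1% and downward in 12.3% (limma, 4 groups of 3 arrays). The ages lie in batches 3 and 2. A batch shift common to both jaws cancels in this contrast, but a batch that acts on one jaw more than the other cannot be told apart from age. Genes lower in the proximal mandible at E12.5 were mostly lower already: of the 631, 591 (93.7%) were called in the same direction at E11.5 and 6 in the opposite one (median -1.17). Of the 379 higher genes 201 were called the same way, 26 the opposite way and 152 not (median 0.50). Leaving out single arrays gave 3797 to 4409 changed genes, leaving out the arrays numbered 2 in every group 2462, and array quality weights 8674.

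Of the lower-jaw genes 10 of 14 were higher in the mandible at E11.5 too, beside 21.4% of all genes, with a median of 1.82. By E12.5 the difference had changed downward for 6 and upward for 1, beside 12.3% and 11.1% of all genes. Hand2 went from 5.12 to 2.43 (change -2.68, SE 0.16), Pitx1 from 4.05 to 1.73, Tbx4 from 2.66 to 0.97, Dlx6 from 2.32 to 0.67 and Dlx5 from 1.88 to 0.86. The means of Hand2 were 11.67 and 6.56 at E11.5 and 10.14 and 7.70 at E12.5. Gata3 was the member that moved upward, from -1.02 to 0.77. The difference of Gsc (2.25 and 2.81) did not change by the test (adjusted p in limma 0.199).

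Several differences changed between the ages, from no call at E11.5 for C1qtnf3 and Oc90 and from a called one for Hoxa2, Zic1 and Gal. C1qtnf3 had dim means of 3.34 and 3.22 at E11.5 and a change of 5.24 (SE 0.33). Oc90 differed by 0.49 at E11.5 (change 4.61, SE 0.34), and Hoxa2 by 2.45 (change 2.42, SE 0.40). Zic1, a zinc finger gene of the dorsal neural tube and of head mesenchyme, turned round: its means were 5.10 in the mandible against 9.76 in the maxilla at E11.5 and 11.04 and 9.46 at E12.5 (change 6.25, SE 0.57, limma adjusted p = 5.88e-12). Gal, the neuropeptide galanin, read 6.63, 6.62 and 6.60 in the mandible against 10.76, 10.88 and 10.76 in the maxilla at E12.5, a difference of -4.18 after -0.65 at E11.5. Hoxb2 and Hoxc4 changed by 2.37 and 2.35. Of the cartilage list 7 changed upward, Matn1 by 3.25, and 1 downward (median 0.53), beside 11.1% and 12.3% of all genes. In the muscle list 20 of 24 were higher at E11.5 too, beside 21.4% of all genes, and 0 changed upward and 1 downward (median 0.09).

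The sensory neuron list was lower in the mandible in 18 of 19 cases at E11.5 (median -4.33), and 4 members changed upward and 2 downward. Beside the counts of this paragraph stand 21.4% of all genes higher and 10.7% lower at E11.5. The change was upward in 11.1% and downward in 12.3% of all genes, and the 2 downward changes lay near that share. Glial genes were lower in 9 of 10 at E11.5. Epithelial genes were higher in 10 and lower in 2 of 16 at that age, the lower share being near that of all genes. Krt8 and Krt18, keratins of simple epithelium, turned from -1.05 and -0.56 to 1.58 and 1.05, whereas the basal keratin Krt14 went from 1.76 to 0.36. Of the cell cycle list 8 changed upward and 0 downward.

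**Figure D5:**
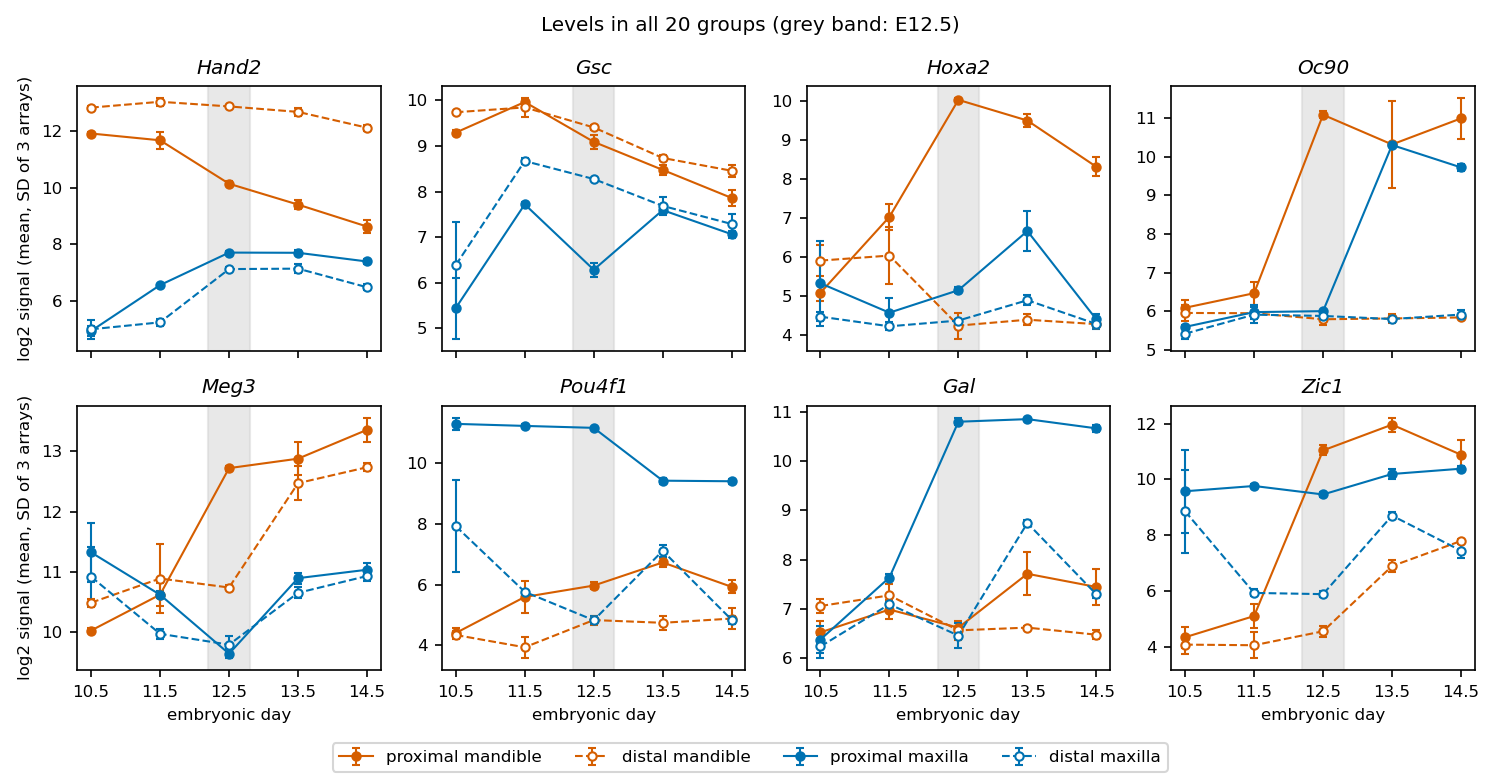
Mean log2 signal (y axis, bars are SD of 3 arrays) of 8 genes by embryonic day (x axis) in proximal (filled) and distal (open) pieces of mandible (orange) and maxilla (blue); the grey band marks E12.5. Oc90 reads 11.10 in the proximal mandible and 6.00 in the proximal maxilla at E12.5 and 10.32 and 10.31 at E13.5, days that for the mandible lie in different batches.

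Across the 20 groups the proximal mandible at E12.5 had the highest mean of all for Oc90 (11.10) and Hoxa2 (10.02). Hoxa2 then read 9.49 and 8.30 in the proximal mandible at E13.5 and E14.5 and 6.66 and 4.40 in the proximal maxilla. In the distal pieces Hoxa2 was between 4.22 and 6.03 at every age. Pou4f1 was above 9 only in the proximal maxilla, from 11.29 at E10.5 to 9.40 at E14.5. Gal stayed high in the proximal maxilla after E12.5, at 10.85 and 10.66. Hand2 read 11.91 in the proximal mandible at E10.5 and 8.62 at E14.5, and between 12.12 and 13.03 in the distal mandible at every age. From E13.5 on the jaws lie in different batches, and at E10.5 likewise, so that at those ages jaw and batch cannot be told apart. Within a jaw the ages lie in several batches too, and age and batch cannot be told apart in these levels.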

How the data were processed

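The values are log2 signals of probe sets from 60 arrays, 3 in each of 20 groups. These log2 values were made by the authors with RMA normalization, per the submitters' processing notes, and were used as deposited; the RMA version and whether all arrays were normalized together are not given in the sources used here. RMA forces the arrays to a like distribution, so a shift of most genes cannot be seen. Of 45101 probe sets, 64 controls were left out, 34945 had 1 gene symbol in the platform annotation, 932 had several and 9160 had none. Each gene was represented by its probe set of highest mean over all arrays, giving 18193 genes, 9010 of them with more than 1 probe set.

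Group means of all 60 arrays were fitted in limma 3.58.1 under R 4.3.3 (lmFit, and eBayes with trend, 40 residual degrees of freedom), and two-sided p-values were adjusted by Benjamini-Hochberg over all genes with a threshold of 0.05. All groups entered the fit to share one estimate of spread. The script was tested on simulated data. The interaction was the proximal less the distal jaw difference at E12.5, and the change was the E12.5 less the E11.5 proximal difference. The array number limits the precision.

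The genes described first were the 14 called genes with the largest log2 difference in each direction whose arrays did not overlap, whose higher mean was at least 6 and which were neither predicted models nor sex-linked. For the interaction and the change 5 genes per direction were taken by that rule without the overlap condition. In each list the called members of smallest p, at most 6, were named, and all members of the lower-jaw and upper-jaw lists. Shh, Krt14, Dmp1, Pax8, Myl2, Nppa, Bmp4 and Msx2 in their lists, Hoxb2 and Hoxc4 in the change, and the genes of the closing observations were named after their values were seen. The members and the lists were chosen with earlier results of these data known. The labels do not say whether arrays of the same number belong together. Deviations of same-numbered proximal arrays from their group means correlated at 0.17, -0.47 and -0.48. The 2 arrays that stood apart carry different numbers and correlated at 0.58, so that this check cannot decide on pairing.

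Alternatives were quantile normalization, centring, a filter on dim genes, other probe set rules, smaller sets of arrays, other moderation, array weights, replicate blocks, a 2-fold limit and leaving out arrays. Promoter windows came from the RefSeq annotation of GRCm38.p6.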

Additional observations from a re-analysis of the deposited data

Results flagged for a closer look

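The 5 genes in each direction whose proximal jaw difference at E12.5 departed most from the distal one, among those the naming rule admits, were as follows (limma interaction). The departure was upward for Myl4 (5.41), Tnnt2 (5.30), Tnnc2 (5.29), Oc90 (5.18) and C1qtnf3 (5.02). The first 3 of these are contractile proteins with low levels in the distal mandible, whereas Oc90 and C1qtnf3 were low in both distal pieces. It was downward for the neuronal genes Prrxl1 (-5.81), Isl1 (-5.46), Ppp1r17 (-5.40), Pou4f1 (-5.19) and Ppp1r1c (-5.12). C1qtnf3 and Ppp1r17 were dim in the distal pieces, so that the size of their interaction is uncertain.

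The 5 genes in each direction whose proximal jaw difference changed most between E11.5 and E12.5, among those the naming rule admits, were these (limma). Zic1 (6.25), Ttr, the thyroid hormone carrier transthyretin (5.33), C1qtnf3 (5.24), Oc90 (4.61) and Aldh1a1, a retinaldehyde dehydrogenase (4.50), moved toward the mandible. The difference of Aldh1a1 went from -3.98 to 0.52, the latter without a call (limma adjusted p = 0.595). The water channel gene Aqp4 (-4.10), Prg2, an eosinophil granule protein (-3.62), Gal (-3.53), Hand2 (-2.68) and Dsc3, a desmosomal cadherin (-2.50), moved toward the maxilla. Measured differences of Aqp4 went from 1.75 to -2.36 and of Prg2 from 1.35 to -2.27. Both genes were dim in the mandible at E12.5, where they were at least 3.95-fold and 4.03-fold higher in the maxilla. At E11.5 Prg2 and Dsc3 were dim in the maxilla, Aldh1a1 in the mandible and C1qtnf3 in both jaws, so that the sizes of these changes are uncertain. C1qtnf3 was dim in the maxilla at E12.5 as well. Age and batch cannot be told apart where a batch acted on the jaws unequally.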

How the results depend on the processing

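The 28 genes with the largest proximal differences stayed called in the same direction under all 22 alternatives other than single other probe sets, the replicate blocks included, with a largest limma adjusted p of 9.24e-06 (Aspn). Leaving out both arrays that stood apart was an alternative chosen after seeing the data. Other probe sets reversed the sign, without a call, for Panx3 (-0.055), Prph (0.035) and Hivep3 (0.16), and the cause was not tested. Of 37 other probe sets of these genes, 9 more lost the call with the sign kept: 4 of the 10 of Meg3, the only one of Mirg (0.27) and 1 each of Panx3, Neurod4 (-0.07), Prph and Hivep3. With every probe set as a unit 13206 were called (7580 higher, 5626 lower), since more units were tested, and a 2-fold limit left 1010 genes (379 higher, 631 lower). Array quality weights raised the count of changes from E11.5 to 8674 (4829 upward, 3845 downward), for which the cause was not tested. Leaving out arrays gave 6617 to 7662 proximal calls (3948 to 4819 higher, 2639 to 2916 lower), 4070 to 6048 interactions (2111 to 3602 upward, 1959 to 2478 downward) and 2462 to 4409 changes (993 to 2504 upward, 1465 to 2344 downward). Centring each array on its median gave 4608 changes, 1809 upward and 2799 downward. The replicate block gave 8102 proximal calls as a fixed term over the 12 arrays of E12.5, 7930 as a fixed and 7889 as a random term over all 60 arrays (consensus correlation -0.0192). Whether the replicate numbers pair the samples could not be decided. After repeated quantile normalization 4764 genes were higher and 3328 lower. The dim filter kept 13298 genes. Levels near 4.78 give only bounds on a fold.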

Other observations

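Genes known from the choroid plexus were picked after their values were seen. Of 4 such genes 3 were higher in the proximal mandible at E12.5, beside 27.0% of all genes. Clic6, a chloride channel protein, differed by 2.33 and Calml4, a calmodulin-like protein, by 2.31. The proximal maxilla mean of Clic6 (5.56) was the lowest of the 20 groups. Its proximal mandible mean was 7.89, beside 7.32 in the distal mandible and 7.10 in the distal maxilla. Ttr read 8.71, 8.82 and 9.01 in the mandible against 6.38, 6.49 and 6.46 in the maxilla, a difference of 2.41 with an SE of 0.76 (limma adjusted p = 0.0078), while the folate receptor gene Folr1 differed by 0.31 and was not called.

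Beside Meg3 and Mirg, other transcripts of their imprinted cluster were higher in the mandible, the noncoding Rian by 0.81 and Dlk1, its Notch ligand-like protein gene, by 1.16. At E11.5 Meg3 had a difference of 0.00. These genes too were picked after their values were seen.

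Some genes not known for jaw identity had differences that turned between the ages. Rpl12 turned from -1.01 (E11.5) to 2.81 (E12.5), and Cox7c by -1.38 and 2.97. The noncoding Chaserr differed by -0.97 and 2.41. Dancr, another noncoding RNA, was higher in the mandible by 2.32 at E12.5, while Malat1 (0.27) and Neat1 (-0.09) were not called. E11.5 lies in batch 3 and E12.5 in batch 2.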
